A study of Mus musculus with 4 samples.

Results

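The inflammasome and interleukin-1 axis was followed through 10 genes: the sensors Nlrp3 and Aim2, the adaptor Pycard, the proteases Casp1 and Casp4, the pore-forming Gsdmd, the cytokines Il1b and Il18, the receptor antagonist Il1rn and the decoy receptor Il1r2. They were chosen by symbol, and all 10 were found among the 31017 gene symbols of each count table and passed the filter on low counts. RNA had been sequenced from bone marrow monocytes of wild-type C57BL/6 mice, isolated by flow cytometry. The aged group held 2 libraries from mice aged 18 months and the young group 2 libraries from mice aged 3 months. All 4 libraries carry the disease tag atherosclerosis, and the labels state neither plaques in the donors, nor any treatment, nor pooling. Whether each library came from its own animal is not stated either, so the p-values rest on a spread between libraries that may be technical.

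Inflammasomes are cytosolic protein complexes that sense microbial products or damage. A sensor such as NLRP3 or AIM2 recruits the adaptor ASC, the product of Pycard, which in turn gathers caspase-1. Caspase-1 cuts the precursors of interleukin-1 beta and interleukin-18 into their active forms and cuts gasdermin D, whose fragments open pores in the plasma membrane. Caspase-11, the product of Casp4 in mice, cuts gasdermin D after binding bacterial lipopolysaccharide. Much of this control acts on proteins and their cleavage, which RNA levels do not show. Monocytes are major producers of interleukin-1 beta, a cytokine studied as a driver of inflammation in atherosclerosis.

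All 10 monocyte markers and all 12 neutrophil markers were detected in each library, so detection alone does not tell these cell types apart. The monocyte markers summed to 43535 to 44289 CPM (counts scaled to a common library size) in the aged and 42021 to 44076 CPM in the young libraries. Most of that was Lyz2, which neutrophils also express, and the other 9 summed to 8837 to 9454 CPM and 8877 to 9274 CPM. These sums hide changes in both directions. By edgeR 3 monocyte markers were higher in aged libraries (Csf1r, Spi1 and Cd68) and 2 were lower (Ly6c2 and Mpeg1). That is 50% of the list, the same share as for the neutrophil markers, where 5.77% of all tested genes were called. The neutrophil markers summed to 21340 to 21503 CPM in the aged and 18935 to 19045 CPM in the young libraries, but they did not move one way: by edgeR 2 were higher in aged libraries (Ltf and Ngp), 4 were lower (Cxcr2, Mpo, Elane and Prtn3), and the median log2 change of the 12 was -0.078. The purity of the sort was not tested, and the cells are called monocytes as labelled. In these bulk libraries fewer cells of a type and less RNA per cell cannot be told apart.

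None of the 10 genes passed the test for a difference between aged and young monocytes. By edgeR's quasi-likelihood test, with p-values adjusted over all 12035 tested genes, 0 of 10 were called, where 5.77% of all tested genes were called (694 genes), 2.87% as higher and 2.89% as lower in aged monocytes. At an unadjusted p under 0.05 there were 3 members, Il1rn, Aim2 and Pycard, and all had negative log2 changes. Over all tested genes 21.1% had an unadjusted p under 0.05 (2536 genes), 11% with a negative change. DESeq2 called 0 members and limma-voom called Il1rn. Log2 changes, aged minus young, ranged from -0.38 for Aim2 to 0.14 for Casp1, with 7 negative and 3 positive. Their median was -0.12, beside -0.0044 over all tested genes.

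**Figure D1:**
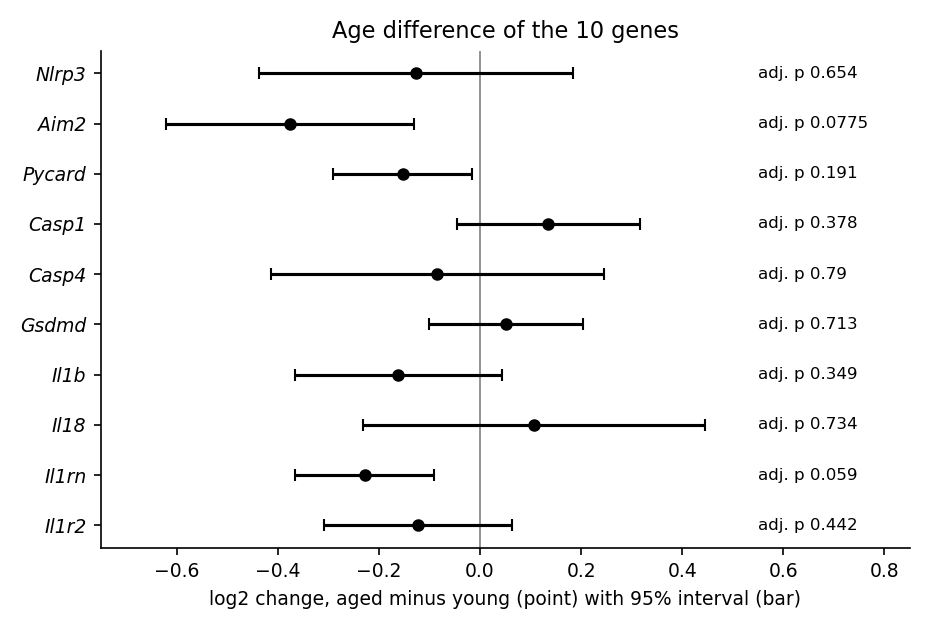
Log2 change of each of the 10 genes between aged and young monocytes (horizontal axis, point) with its unadjusted 95% interval (bar, n = 2 libraries per group), with the edgeR adjusted p at the right. The intervals of Aim2, Pycard and Il1rn lie below 0, and every adjusted p is above 0.05, the lowest being 0.059 for Il1rn.

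The 2 libraries of each age did not overlap in level (CPM) for 8 of the 10 genes, where 51.6% of all tested genes showed no overlap (25.9% with aged higher and 25.7% with aged lower). The aged libraries were the lower ones for Il1b, Il1rn, Il1r2, Pycard and Aim2, and the higher ones for Il18, Casp1 and Gsdmd. For Nlrp3 and Casp4 the groups overlapped. Summed over the 10 genes, the level was 701 and 690.2 CPM in aged replicates 1 and 2. In young replicates 1 and 2 it was 775 and 732 CPM. Il1rn and Pycard, which had the most counts and were lower in the aged libraries, weigh most in this sum. It does not stand for each of the 10 genes.

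**Figure D2:**
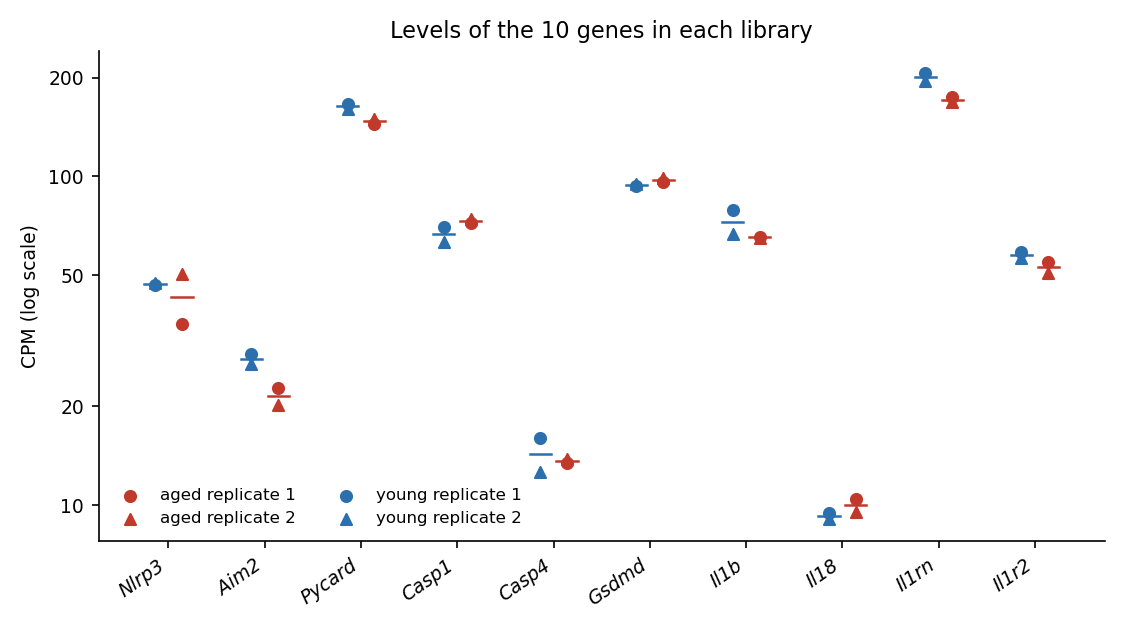
Level of each gene (vertical axis, CPM on a log scale) in the 2 aged (red) and 2 young (blue) libraries, with horizontal bars at the group means. CPM are not corrected for gene length, so levels are to be compared between libraries and not between genes. The Il1rn values run from 168 to 206 CPM with both aged libraries below both young ones, and the aged Nlrp3 values stand apart from each other at 35.5 and 50.7 CPM.

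The stretches just upstream of Il1rn, Aim2 and Pycard are shown because these were the 3 members with an unadjusted p under 0.05. They are the 250 bases before a RefSeq transcription start on GRCm38.p6, written 5′ to 3′ on the gene's strand, with motif matches in capitals. Il1rn has 3 starts in that table, and the one shown is the only one of them with a match. The Il1rn window lies at chr2:24336610-24336859 on the plus strand, the Aim2 window at chr1:173420354-173420603 on the plus strand and the Pycard window at chr7:127993868-127994117 on the minus strand. The Aim2 window is upstream of its RefSeq start only. It lies inside the longer span that GENCODE gives the gene (173350879 to 173466040).
Il1rn: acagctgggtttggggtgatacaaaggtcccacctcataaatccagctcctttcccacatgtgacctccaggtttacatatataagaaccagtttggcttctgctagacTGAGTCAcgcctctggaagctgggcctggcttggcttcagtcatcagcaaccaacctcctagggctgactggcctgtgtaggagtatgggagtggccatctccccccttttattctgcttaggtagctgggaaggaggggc
Aim2: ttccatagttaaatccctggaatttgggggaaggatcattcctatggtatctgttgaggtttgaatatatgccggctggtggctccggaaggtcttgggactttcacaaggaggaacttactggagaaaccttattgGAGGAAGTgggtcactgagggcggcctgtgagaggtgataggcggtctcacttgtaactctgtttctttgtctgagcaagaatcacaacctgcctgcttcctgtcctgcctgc
Pycard: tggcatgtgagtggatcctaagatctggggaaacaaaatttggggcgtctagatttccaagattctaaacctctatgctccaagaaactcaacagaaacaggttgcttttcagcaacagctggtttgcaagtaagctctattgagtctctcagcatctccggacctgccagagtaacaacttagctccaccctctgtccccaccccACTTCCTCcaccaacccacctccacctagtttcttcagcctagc
The motifs searched on both strands were those of the NF-kB family, the interferon-response element GAAANNGAAA, the PU.1-type site GAGGAAGT, the AP-1 site (TGACTCA or TGAGTCA, each the reverse complement of the other) and the TATA box TATAAA. In the Aim2 window the capitals mark the PU.1-type letters 113 to 106 bases before the start, and in the Pycard window the same letters on the opposite strand 44 to 37 bases before it. In the Il1rn window they mark an AP-1 match 141 to 135 bases before the start. Members were counted as genes with a match in any of their windows, 13 for the 9 members, while the percentages count single windows. The figures are therefore not on the same scale. PU.1-type letters were found upstream of 2 of the 9 members with a window and in 2.44% of all 32851 windows. AP-1 letters were found for 1 member and in 4.46% of windows. NF-kB letters stood upstream of Casp4 and Nlrp3, and in 7.25% of windows, and the TATA letters upstream of Il1b and Il18, and in 12.4%. The interferon-response letters stood upstream of 0 of 9 members and in 2.98% of windows. Gsdmd had no window in the table. A match of letters is a description of the sequence and was not tested for use in these cells.

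The sensor gene Nlrp3 differed more between the aged libraries than between the ages. NLRP3 responds to a wide range of danger signals, many of which lower cellular potassium (chromosome 11, 59541568 to 59566956 on GRCm38). Its level was 35.5 CPM in aged replicate 1 and 50.7 CPM in aged replicate 2, against 46.6 and 47.3 CPM in young replicates 1 and 2. The young values thus lay between the aged ones, which differed 1.43-fold from each other. The log2 change was -0.13 ± 0.14 (standard error, n = 2 per group; edgeR adjusted p = 0.654), and its sign depended on 1 library. Without aged replicate 1 the change was 0.11, and without aged replicate 2 it was -0.40.

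AIM2 is a sensor that binds double-stranded DNA in the cytosol (chromosome 1, 173350879 to 173466040). Aim2 stood at 22.8 and 20.2 CPM in aged libraries against 28.9 and 26.9 CPM in young ones. Both aged libraries lay below both young ones, and the log2 change was -0.38 ± 0.11, the largest in size among the 10 genes. The fold of aged over young was 0.771, with an unadjusted 95% interval of 0.65 to 0.914, and the edgeR adjusted p was 0.0775. It passed without aged replicate 1 (adjusted p = 0.0326) and with no filter on low counts (0.0299), and over all 13 alternatives the adjusted p ranged from 0.0104 to 0.405.

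The adaptor gene Pycard had an unadjusted p under 0.05 but did not pass (chromosome 7, 127989708 to 127993867). ASC, its product, polymerises into the speck on which caspase-1 is activated. Pycard stood at 144 and 150.1 CPM in aged libraries against 166 and 161 CPM in young ones. The groups did not overlap, and the log2 change was -0.15 ± 0.062 (edgeR adjusted p = 0.191; lowest over 13 alternatives 0.0902). Of its annotated exon bases, 12.8% lie in the unconfirmed transcript Gm45205 on the other strand, and the strand setting of the counting is not given in the sources used here.

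The inflammatory caspase genes Casp1 and Casp4 lie next to each other on chromosome 9, with 1562 bases between them. Casp1 (5298517 to 5307265) stood at 72.3 and 74.4 CPM in aged libraries against 70.2 and 63.2 CPM in young ones. The aged libraries were the higher ones, but the young libraries differed from each other 1.11-fold, about as much as the ages did at 1.10-fold (log2 change 0.14 ± 0.081, adjusted p = 0.378). Casp4 (5308828 to 5336783) stood at 13.4 and 13.8 CPM in aged libraries against 16.1 and 12.6 CPM in young ones. Here the aged values lay between the young ones, and the log2 change was -0.084 ± 0.15 (adjusted p = 0.79). The gap between the young libraries was wider than counting error: exact 95% Poisson intervals were 14.8 to 17.5 CPM and 11.1 to 14.3 CPM. These intervals cover counting error only. Casp4 was not alone in this: such intervals were also apart between the young libraries for Il1b, Il1rn and Casp1, and between the aged ones for Nlrp3. Without young replicate 1 the Casp4 change was 0.11, and without young replicate 2 it was -0.24.

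Gsdmd, which encodes the pore-forming gasdermin D, was the most closely matched between the ages (chromosome 15, 75862327 to 75867408). It stood at 96.3 and 98.9 CPM in aged libraries against 93.5 and 94.9 CPM in young ones. The aged values were slightly higher in both libraries, and the log2 change was 0.051 ± 0.069 (edgeR adjusted p = 0.713). The fold of aged over young was 1.04, with an unadjusted 95% interval of 0.933 to 1.15.

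The cytokine genes Il1b and Il18 did not pass either. Il1b (chromosome 2, 129364570 to 129371139) stood at 65.5 and 65.2 CPM in aged libraries against 79.1 and 66.6 CPM in young ones. Young replicate 1 was the high library, the other 3 lay between 65.2 and 66.6 CPM, and the log2 change was -0.16 ± 0.092 (adjusted p = 0.349). Without young replicate 1 the change was -0.027, and without young replicate 2 it was -0.28. The antisense gene Il1bos shares 1.31% of the exon bases of Il1b. Il18 (chromosome 9, 50554827 to 50581840), the cytokine that drives interferon-gamma production by lymphocytes, had the fewest counts of the 10 genes. It stood at 10.4 and 9.57 CPM in aged libraries against 9.49 and 9.08 CPM in young ones, from 181 to 328 counts per library. The aged libraries were the higher ones by a small margin, the 95% counting intervals of all 4 libraries overlapped, and the log2 change was 0.11 ± 0.15 (adjusted p = 0.734).

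The antagonist gene Il1rn came closest to the threshold (chromosome 2, 24336853 to 24351494). Its product occupies the interleukin-1 receptor without signalling. Il1rn stood at 174 and 168 CPM in aged libraries against 206 and 195 CPM in young ones. Both aged libraries lay below both young ones, by more than either pair differed from each other, and the log2 change was -0.23 ± 0.062 (edgeR adjusted p = 0.059). The fold of aged over young was 0.854, with an unadjusted 95% interval of 0.776 to 0.939. Il1rn passed in limma-voom (0.0495), with robust edgeR (0.0466), with no filter on low counts (0.0175) and without aged replicate 1 (0.0376). Over all 13 alternatives its adjusted p ranged from 0.00345 to 0.397, the highest being without young replicate 1, and all gave a negative change. Neutrophils also express Il1b, Il1rn and Il1r2, and the 12 neutrophil markers had a higher sum in the aged libraries with 2 called up and 4 called down. Their part in the values of these 3 genes was not tested.

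Il1r2 encodes a receptor that binds interleukin-1 but carries no signalling domain (chromosome 1, 40074079 to 40125231). It stood at 55.1 and 50.7 CPM in aged libraries against 58.8 and 56.3 CPM in young ones. The aged libraries were just below the young ones, and the log2 change was -0.12 ± 0.084 (edgeR adjusted p = 0.442). Per length of exon, Il1r2 stood far above Il1r1, which encodes the signalling receptor. In RPKM (counts per kilobase of exon, scaled to the library total), Il1r2 lay between 26.5 and 31.1 and Il1r1 between 0.0144 and 0.179 over the 4 libraries. Il1r1 had 9 and 2 counts in the aged and 39 and 10 counts in the young libraries, too few for a firm comparison (adjusted p = 0.169).

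The balance of antagonist to agonist was compared within each library, where scaling factors cancel. The ratio of Il1rn to Il1b in counts per kilobase of exon was 0.918 and 0.888 in aged libraries against 0.898 and 1.01 in young ones. The groups overlapped (0.903 ± 0.021 against 0.952 ± 0.076, SD, n = 2 per group; exact permutation test, two-sided, p = 0.667). The size of this ratio depends on the gene lengths used, so it does not tell which transcript was more abundant. In raw counts it was 2.66 and 2.58 in aged libraries against 2.61 and 2.92 in young ones. Per length of principal transcript, Il1rn lay above Il1b in each library. The ratio of Il1rn to Il1r2, in counts per kilobase of exon, was 1.09 and 1.14 in aged libraries against 1.21 and 1.19 in young ones. The groups did not overlap here (1.12 ± 0.035 against 1.2 ± 0.014, SD, n = 2 per group; exact permutation test, two-sided, p = 0.333). That p is the smallest a design of 2 against 2 can give.

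**Figure D3:**
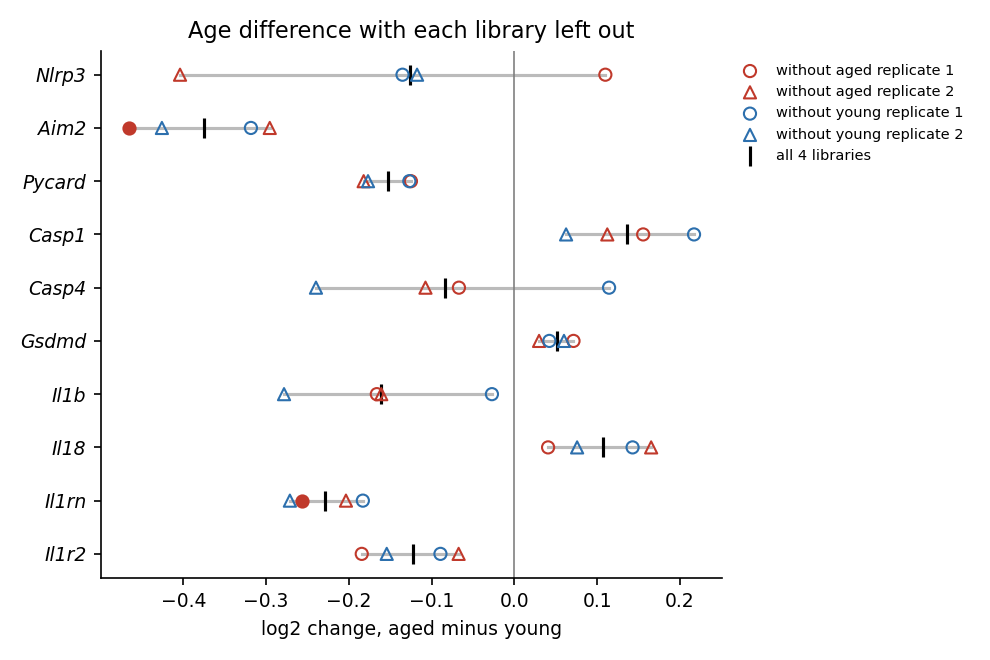
Log2 change of each gene (horizontal axis, aged minus young) with 1 library left out at a time; colour and marker name the library left out, filled markers have an adjusted p under 0.05, and the black bar is the change with all 4 libraries. The sign of Nlrp3 turns without aged replicate 1 and that of Casp4 without young replicate 1, and only Aim2 and Il1rn have a filled marker.

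Per length of exon the 10 genes fell into a higher and a lower set. Il1rn, Gsdmd, Il1b, Casp1, Pycard and Il1r2 lay between 26.5 and 49.5 RPKM over the 4 libraries, and Nlrp3, Il18, Aim2 and Casp4 between 3.36 and 12.4 RPKM. With the length of the longest principal transcript in place of all exons, the higher set lay between 35.6 and 84.1 RPKM and the lower set between 7.1 and 12.5 RPKM. Within the higher set the order depended on the length used: Casp1 and Pycard held the top place in different libraries by all exons, and Il1rn held it in all 4 by principal transcript. Within the lower set Nlrp3 and Il18 overlapped on both scales. Aim2 lay above Casp4 in each library by all exons, and the other way round in aged replicates 1 and 2 and young replicate 1 by principal transcript.

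**Figure D4:**
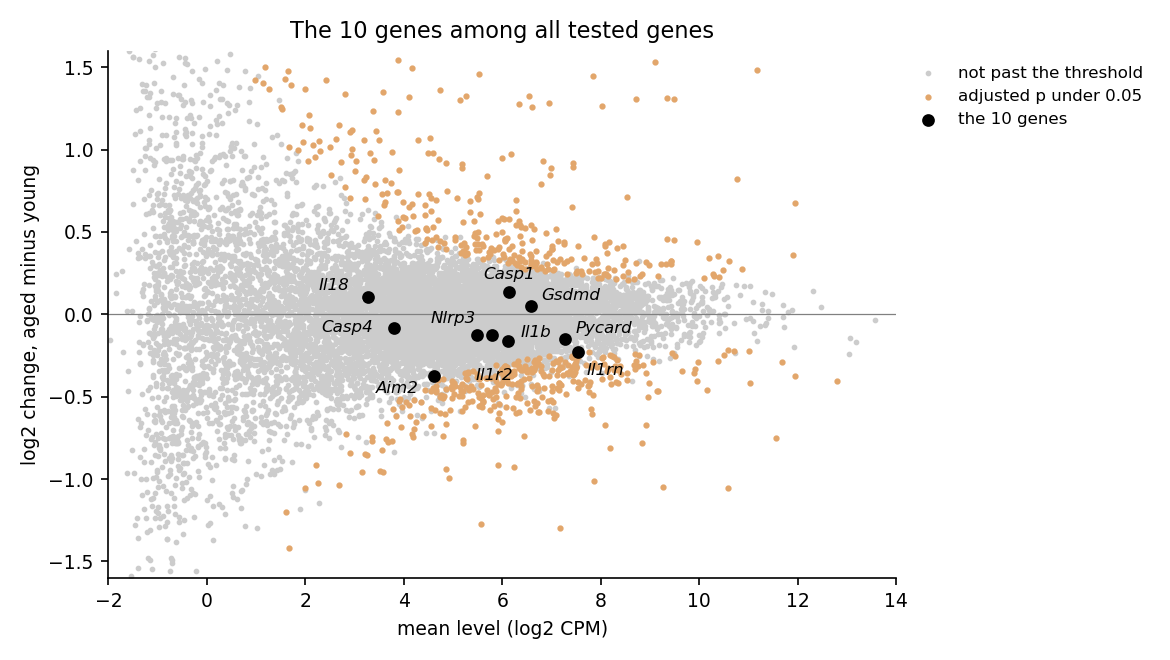
Log2 change (vertical axis, aged minus young) against mean level (horizontal axis, log2 CPM) for all tested genes, with those past the threshold in orange and the 10 genes in black; 114 genes lie outside the axes. Il1rn and Aim2 sit at the edge of the lower band of called genes and the other members lie inside the grey cloud.

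A wider list of 69 pathway genes, chosen for their known roles after earlier results of these data were seen, gave 66 tested genes. Of these, 2 rose and 1 fell in aged monocytes, 4.55%, which is near the 5.77% over all tested genes. Their median log2 change was -0.052, and 17 had an unadjusted p under 0.05, where 21.1% of all tested genes did.

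Txnip, which encodes a thioredoxin-binding protein reported to bind NLRP3, fell. It stood at 492 and 474 CPM in aged libraries against 672 and 661 CPM in young ones (log2 change -0.46 ± 0.053, edgeR adjusted p = 0.000703), and it passed under every alternative run. P2rx4, the gene of an ATP-gated ion channel, rose from 49.9 and 55 CPM in the young to 69.9 and 67.9 CPM in the aged libraries (0.40 ± 0.083, adjusted p = 0.0218). It was lost without young replicate 1 (0.224). The other 9 tested regulators did not pass, among them P2rx7, the ATP-gated channel best known for triggering NLRP3, at 69.5 and 72.0 CPM against 72.2 and 65.8 CPM (0.034 ± 0.080). Chosen after its values were seen, P2rx7 is named here beside its relative.

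Among 11 tested genes of receptor signalling, Myd88 rose, the adaptor shared by interleukin-1 receptors and most Toll-like receptors. It stood at 201.2 and 200.8 CPM in aged libraries against 167 and 168 CPM in young ones (log2 change 0.26 ± 0.058, edgeR adjusted p = 0.0273). The change was 0.26 with any library left out, but the adjusted p was then 0.057 without aged replicate 2, 0.192 without young replicate 1 and 0.114 without young replicate 2. The median of the signalling genes was 0.085, with 8 positive and 3 negative.

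No gene passed with edgeR in the remaining lists. The counts at an unadjusted p under 0.05 given for them stand beside 21.1% over all tested genes, and with 3 to 9 tested genes a list they are not read as results. Among 9 tested other sensors, 1 had an unadjusted p under 0.05: Naip1, at 0.917 and 0.368 against 2.08 and 1.003 CPM, with 8 to 72 counts per library (adjusted p = 0.215). Among 9 relatives of Aim2 in the PYHIN family there were 3, the smallest p being that of Ifi211, at 37.9 and 39.7 CPM in aged libraries against 48.0 and 49.0 CPM in young ones (-0.32 ± 0.086, adjusted p = 0.0558). Among 7 guanylate-binding and related GTPases, which help expose bacterial products to these sensors, there were 3, in both directions, and 6 of the 7 changes were negative (median -0.13). Gbp4 had the smallest p and the only positive change, at 2.31 and 2.25 against 0.463 and 1.15 CPM, from 16 to 58 counts per library (1.58 ± 0.47, adjusted p = 0.0789). Its change was 0.98 without young replicate 1 (adjusted p = 0.433) and 2.29 without young replicate 2 (0.0385), and it passed with no filter on low counts (0.00349) and in limma-voom (0.0468). Gbp5 and Gbp2, named after their values were seen, were the other 2. Gbp5 stood at 3.23 and 2.35 against 7.53 and 3.96 CPM (-1.06 ± 0.32, adjusted p = 0.081) and Gbp2 at 27.6 and 26.8 against 35.3 and 31.0 CPM (-0.29 ± 0.10, adjusted p = 0.146). Members of the Naip, PYHIN and Gbp families are near-identical in parts, and the effect of this on their counts was not tested.

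The 9 genes of membrane rupture and other death proteases had a median of -0.086, and 2 had an unadjusted p under 0.05. Of the 3 tested genes for other ligands and soluble inhibitors, Il36g, listed under its older symbol Il1f9, was readily detected in both groups. It stood at 121 and 130 CPM in aged libraries against 124 and 118 CPM in young ones (0.052 ± 0.069, adjusted p = 0.712). By DESeq2 the calls over the 66 genes also numbered 3, and by limma-voom 4.

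**Figure D5:**
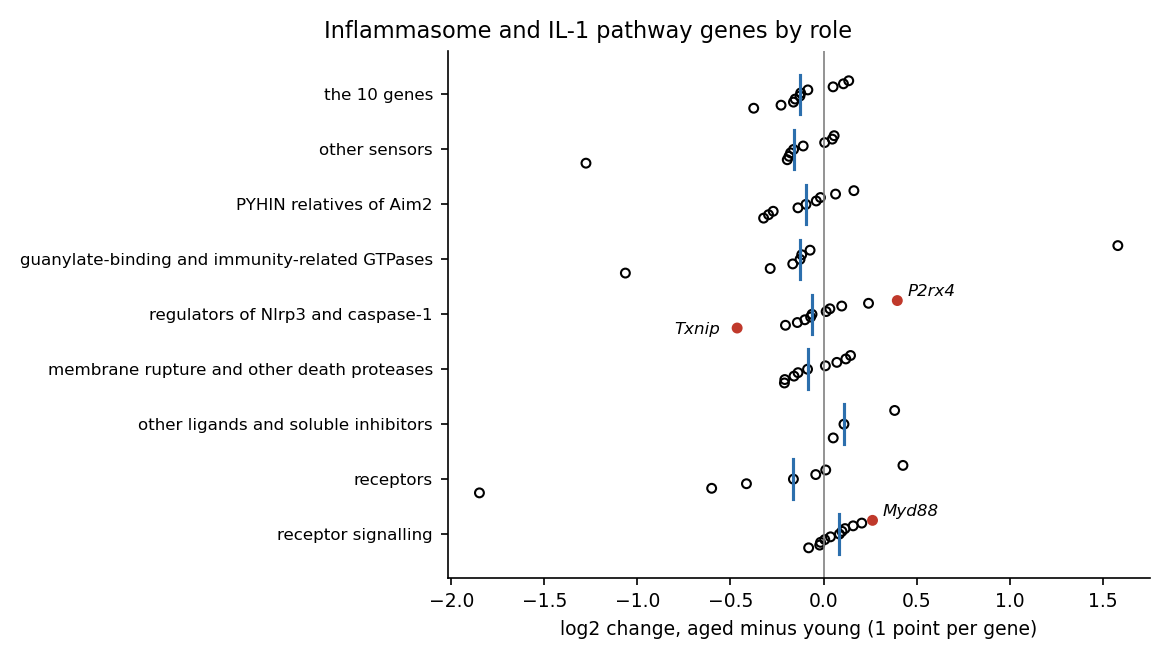
Log2 change, aged minus young, of the 10 genes and of the other pathway genes by role (1 point per gene, blue bar at each list's median, filled red points with an adjusted p under 0.05). The filled points are Txnip, P2rx4 and Myd88, and the medians lie between -0.16 and 0.11.

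By mean CPM over the 4 libraries, the leading monocyte markers were Lyz2, at 32747 to 35199 CPM, and Ly6c2, at 1794 to 1813 CPM in the aged and 2337 to 2489 CPM in the young libraries, although Ccr2 was above Ly6c2 in both aged ones. The leading neutrophil markers by the same mean were Ngp, at 4851 to 5066 CPM in the aged and 3076 to 3145 CPM in the young libraries, and Retnlg, at 3737 to 3884 and 3617 to 3857 CPM, although Mmp9 was above Ngp in both young ones. Markers of other cells were summed as well, aged against young. Those of B lineage cells (8 markers, 3 higher) gave 44.98 to 46.3 against 26.8 to 29.3 CPM. Those of dendritic cells (8, 2 higher) gave 207 to 210 against 176 to 183 CPM, mostly from Cd209a. Those of marrow macrophages (8, 2 higher) gave 460.0 to 492 against 489 to 510.3 CPM, mostly from Adgre1 and Slc40a1. By sign, 6 dendritic changes were positive and 2 negative, and 4 macrophage changes were positive and 4 negative. None was called for T and NK cells (8 markers), with 42.1 to 43.2 against 46.5 to 52.7 CPM. Most of that sum was Nkg7, at 32.8 and 29.1 CPM in aged libraries against 36.8 and 41.5 CPM in young ones. Of the 7 tested T and NK markers, 6 had a positive change and 1 a negative one (median log2 change 0.28). None was called for erythroid cells (6 markers) either, with 305 to 312 against 287 to 316 CPM. Library totals ran from 20159129 to 34278754 counts.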

How the data were processed

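Raw counts per gene symbol had been deposited, 1 table per library, and the authors applied no normalization to them, judging by their whole values and unequal totals. Tools listed in the submitters' processing notes are STAR 2.5.3, cutadapt, HTSeq and DESeq2, with the build mm10 and no roles. The annotation used and the strand setting of the counting: not given in the sources used here. Libraries were prepared from oligo-dT selected RNA with dUTP strand marking, per the labels' protocols.

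Genes were kept by filterByExpr (minimum count 10, minimum total 15), scaled with TMM factors, and tested with edgeR 4.0.16 (quasi-likelihood F-test, two-sided, all 4 libraries, age as the only term), with Benjamini-Hochberg adjustment over all tested genes at 0.05. The standard error of a log2 change is its size divided by the root of F, and 95% intervals use the t distribution. CPM use TMM-scaled library sizes and RPKM the library totals. The procedure was run on simulated counts drawn with dispersions fitted to these data. The outcome is not given here, and no result rests on it. Other tools were R 4.3.3, limma 3.58.1 and DESeq2 1.42.0.

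A count of 0 allows up to 3 counts, or 0.0875 to 0.149 CPM. Gene positions and exon lengths are from GENCODE M21 (GRCm38), in which 30477 symbols matched 1 gene, and upstream sequences from RefSeq (GRCm38.p6), in which 9 of 10 members had a window. Members and lists were chosen with earlier results of these data known. From the wider pathway lists the text names genes past the threshold, or the smallest p where none passed. For monocytes and neutrophils it names the markers past the threshold and the 2 highest by mean CPM over the 4 libraries. The other marker lists are given as sums. Nkg7, Cd209a, Adgre1 and Slc40a1 were named in them after their values were seen. Irgb10 (Gm12250) was not analysed here. A gene that this rule names is not reported here.

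Alternatives were 3 other scalings, 2 other filters, DESeq2, limma-voom, robust edgeR, a block for the replicate number, and leaving out each library in turn. The longest principal transcript as length was chosen after seeing the data.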

Additional observations from a re-analysis of the deposited data

How the results depend on the processing

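Under 13 alternatives the 10 genes gave 130 results, of which 128 kept the sign of the main test and 8 were calls, all of Il1rn or Aim2 as lower in aged monocytes. Members called numbered 2 with no low-count filter, 1 with limma-voom, 1 with robust edgeR, and 0 to 2 with 1 library left out, the 2 being without aged replicate 1. Over all genes, 1399 were called with no low-count filter, and 197 to 1040 with 1 library left out, the 197 being without young replicate 1, the deepest library. Pathway genes called numbered 8 with no low-count filter, and 1 to 5 with 1 library left out, 1 without young replicate 1 and 5 without aged replicate 1. The cause of these moves was not tested, other than that a left-out library leaves 1 library in its group, whose spread is assumed to be that of the other group. The ratios of aged to young for Il1rn over Il1b (0.897 to 1.005 with a library left out) and Il1rn over Il1r2 (0.91 to 0.951) moved by less than the spread between libraries.

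The labels give both groups replicates 1 and 2 and do not say that a number marks a shared animal or day. Deviations of same-numbered libraries correlated at 0.0937 over genes. With the replicate block 1817 genes, 2 members (Il1rn and Aim2) and 10 pathway genes were called.

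With 2 libraries per group, the precision is set by the spread between libraries, and the intervals plotted for each gene show which sizes it allows. Scaling moved the median log2 change of all genes by at most 0.013.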

Other observations

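Receptor chains of the interleukin-1 family differed widely in level, and the pairs described here were chosen after their values were seen. Per kilobase of exon, Il18rap, the accessory chain of the interleukin-18 receptor, lay between 6.89 and 8.64 RPKM over the 4 libraries, and Il18r1, the chain that binds the cytokine, between 0.194 and 0.45 RPKM. Il1rap, the accessory chain shared by several receptors of the family, lay between 2.72 and 3.1 RPKM. Il1rl2, which pairs with it to form the receptor for interleukin-36, lay between 1.04 and 1.44 RPKM. Il36g, one of the ligands of that receptor, lay between 71.0 and 78.8 RPKM, above Il1b at 34 to 41.8 RPKM in each library. Sigirr, which dampens signalling of the family, lay between 4.64 and 5.1 RPKM. Il1a, the other interleukin-1 agonist, had 9 to 14 counts per library, and Il33 had 0 counts in all 4, which allows up to 3 counts in each.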
